A study of Mus musculus with 20 samples.

Results

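The 5 genes described here stand behind the 4 surface antigens by which the cells of this study were sorted. They were taken by name from the table of 45705 genes: Prom1 encodes CD133, Pdgfra encodes CD140a, Cspg4 encodes the NG2 core protein, and Fut4 and Fut9 encode fucosyltransferases that make LeX. Levels are RPKM, read numbers corrected for the length of the gene and the size of the library. All 5 genes passed the filter on low levels, an RPKM of 1 or more in no fewer than 4 of the 20 libraries, which left 27614 genes for testing. The question was how well the transcripts followed the sort gates in each batch. Cells came from the periventricular zone of Swiss Webster pups at P5, with all pups of a litter pooled, and were dissociated with Liberase, stained live and sorted by FACS. Each of 4 batches gave 1 library of each of 5 populations, so every population had 4 libraries, and NSC 1 stands for the NSC library of batch 1.

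The neural stem cells (NSC) were sorted as CD133+LeX+CD140a-NG2-. BNAP/GRP1 was CD133-LeX+CD140a-NG2+, GRP2/MP3 was CD133-LeX-CD140a-NG2+, GRP3 was CD133-LeX-CD140a+NG2+ and PFMP was CD133-LeX+CD140a+NG2+. The CD133 and NG2 gates therefore split the 20 libraries in the same place and in opposite directions, and differences between NSC and the 4 progenitors cannot be told apart as belonging to one antigen or the other. The study describes BNAP/GRP1 and GRP2/MP3 as mixtures of cells. The RNA was amplified from its polyA tails, and in such bulk libraries fewer cells of a type and less RNA per cell cannot be told apart.

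CD133, or prominin-1, is a glycoprotein of membrane protrusions and primary cilia that marks neural stem cells and ependymal cells. CD140a is the alpha receptor for platelet-derived growth factor (PDGF), the mitogen receptor of oligodendrocyte progenitor cells (OPCs). NG2 is a chondroitin sulfate proteoglycan found on OPCs and on pericytes, the contractile cells along capillaries. LeX (CD15, SSEA-1) is not a protein but a sugar, formed when an alpha-1,3-fucosyltransferase adds fucose to an N-acetyllactosamine chain, and FUT9 is known as its main enzyme in the brain. An antibody to LeX thus reads the work of a chain of enzymes, while the other 3 antibodies read the product of a single gene.

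The batches differed in ways that touch every value below. In batch 3 all 5 libraries held summed RPKM of the 6 erythrocyte markers between 228440.1 and 252653, against at most 26515 in the other batches, and summed RPKM of the 8 alveolar macrophage markers between 1281 and 1483, against at most 139.5. The 10 OPC markers summed to at most 15.1 RPKM in batch 3. Read from the steps between low values, the depth of BNAP/GRP1 4 was 0.0395 times that of BNAP/GRP1 1, the lowest of the 20, and that of BNAP/GRP1 3 was 1.41 times it, the highest. The part of these differences in the results was not tested. Fits without batch 3 are given only for the 5 genes in their own gates and in the matched contrasts. Calls on other genes, and on Cspg4 in the CD140a gate, come from fits with all 4 batches, and it is not known whether they hold without batch 3.

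All 5 genes are protein-coding, and are placed here by the GENCODE vM21 annotation of GRCm38. Prom1 lies on the minus strand of chromosome 5 (43993620 to 44102032) and Pdgfra on its plus strand (75152292 to 75198215). Fut4 lies on the minus strand of chromosome 9 (14748320 to 14752393), Cspg4 on its plus strand (56865033 to 56899870), and Fut9 on the minus strand of chromosome 4 (25609332 to 25800244). Prom1 overlaps Gm42716 on its own strand and an antisense gene, Gm16401, that reached 8.22 RPKM in its highest library, and Pdgfra overlaps Gm42802 and Gm42803 on the other strand and Mir7025 on its own. The use of strand in counting is not given in the sources used here, and without it reads of such pairs cannot be told apart. No annotated gene overlapped Fut4, Fut9 or Cspg4.

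**Figure D1:**
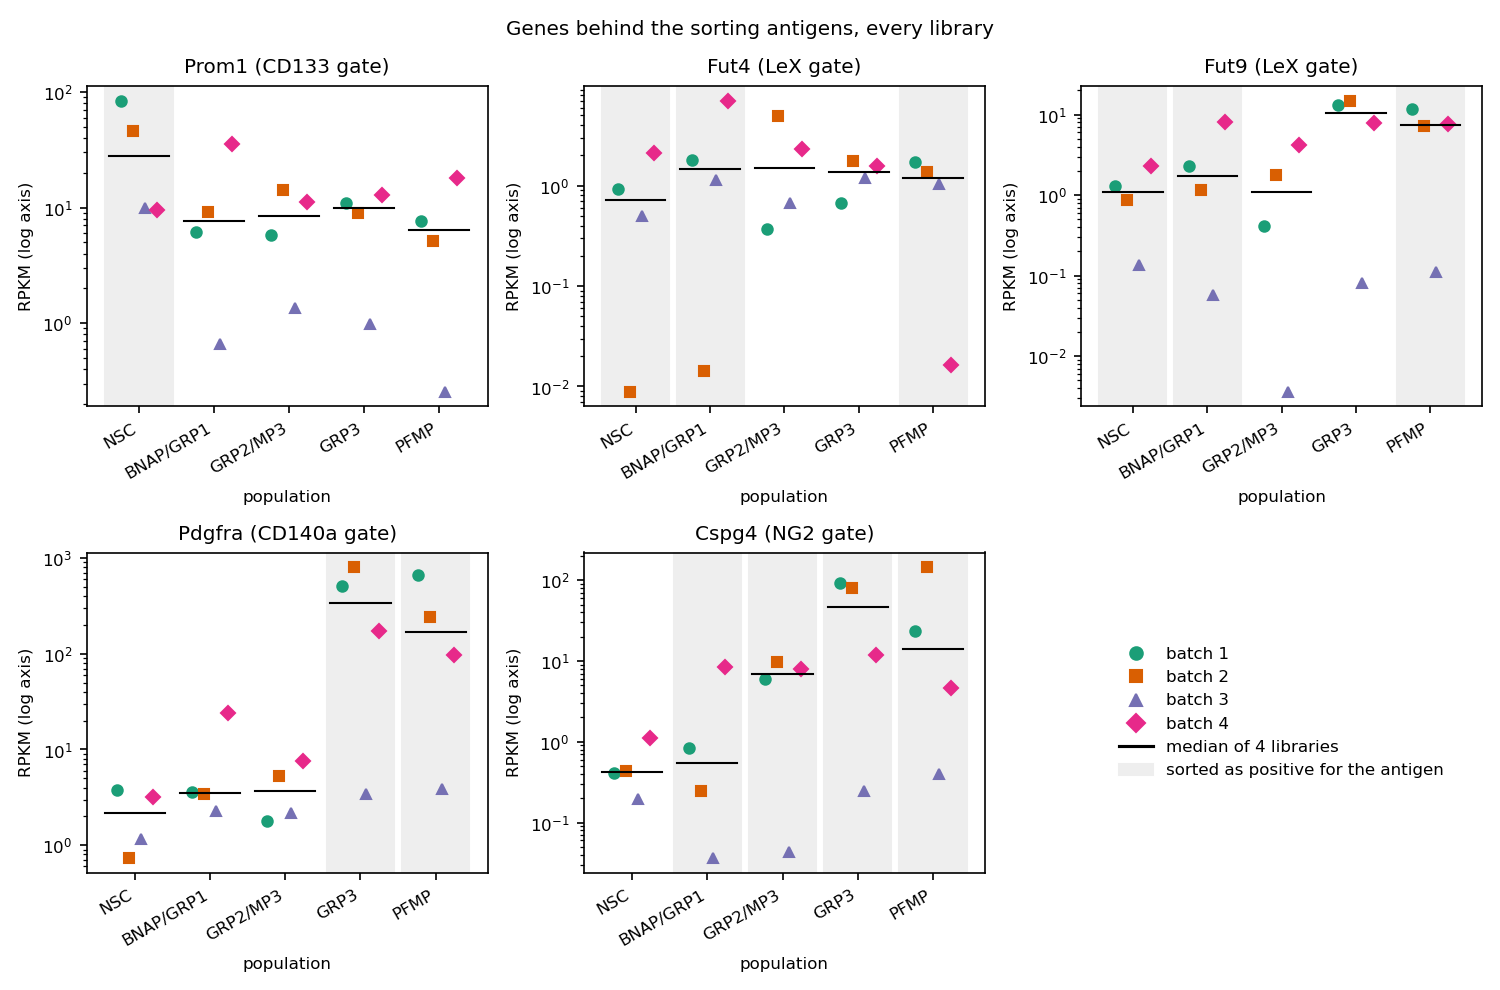
RPKM of each of the 5 genes (log axis) in the 20 libraries, by population, with the batch as colour and shape, the median of the 4 libraries as a line, and grey where the population was sorted as positive for the antigen. Pdgfra in GRP3 and PFMP stands above the other populations of its batch in each of the 4 batches, while Fut4 and Fut9 are spread across grey and white columns alike.

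Pdgfra followed its gate in every batch. Its RPKM in the CD140a+ populations was 512, 803, 3.41 and 171 in GRP3 and 658, 239.8, 3.84 and 96.9 in PFMP, in batches 1 to 4. In the CD140a- populations it was 3.81, 0.731, 1.15 and 3.15 in NSC, 3.59, 3.47, 2.26 and 24.1 in BNAP/GRP1, and 1.80, 5.23, 2.18 and 7.49 in GRP2/MP3. Within each batch both CD140a+ libraries thus lay above all 3 CD140a- libraries, so that 24 of 24 pairs of a positive and a negative library of one batch were in the order of the gate. Of all genes tested, 0.116% were separated in this way in all 4 batches.

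The margin was uneven. The lower CD140a+ library exceeded the highest CD140a- library 134-fold in batch 1, 45.8-fold in batch 2, 1.51-fold in batch 3 and 4.01-fold in batch 4. Across batches the groups overlapped, since GRP3 3 and PFMP 3 were below several CD140a- libraries of other batches, and no gene tested (0%) kept all 8 positive libraries above all 12 negative ones. In batch 4 the highest CD140a- library was BNAP/GRP1 4, the shallowest of the 20, at 24.1 RPKM, where the other BNAP/GRP1 libraries held 2.26 to 3.59.

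On the scale of log2(RPKM + 1), Pdgfra was higher by 4.65 ± 0.89 (SE) in the CD140a+ populations, with a mean of 6.80 against 2.15 and a 95% interval of the difference from 2.80 to 6.50. With the 4 libraries of a population as replicates and no batch term, this gave an adjusted p of 0.0811 (limma, Benjamini-Hochberg over the 27614 genes). In that fit no gene passed 0.05 in the CD140a gate (0% higher and 0% lower), while 568 were higher and 1058 lower at an unadjusted p under 0.05. With the batch number as a replicate block the SE was 0.69 and the adjusted p of Pdgfra 0.00422, in a fit that called 0.713% of genes higher and 1.14% lower. Without batch 3 the difference was 5.96 and the adjusted p 0.000517, or 0.000772 with the block (1.28% of genes higher). Leaving out NSC 3, GRP3 3 or PFMP 3 alone also brought Pdgfra past the threshold, with adjusted p of 0.0372, 0.00843 and 0.0374, while leaving out any 1 of the other 17 libraries did not.

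A stricter comparison set GRP3 and PFMP against GRP2/MP3 and BNAP/GRP1 only, where CD133 and NG2 were gated alike and LeX was balanced. Pdgfra was higher by 4.35 ± 0.97 (SE) there, with an adjusted p of 0.404 without a batch term (0% of genes called, 446 higher and 773 lower at an unadjusted p under 0.05) and 0.0377 with the replicate block (0.442% of genes higher and 0.999% lower). Without batch 3 it was 5.63, with an adjusted p of 0.00320 with the block (0.992% of genes higher). The difference of GRP3 from GRP2/MP3, both LeX-, was 4.83 ± 1.38, and that of PFMP from BNAP/GRP1, both LeX+, was 3.86 ± 1.38. Neither passed, with adjusted p of 1.00 and 0.674 by limma and of 0.309 and 0.254 with the block, and 0 genes were called in either contrast (211 and 95 higher, 255 and 1260 lower at an unadjusted p under 0.05 without the block). The difference between those differences was -0.97, with a 95% interval from -5.03 to 3.08 and an adjusted p of 0.965 by limma. The order of the populations by mean log2 level was GRP3, PFMP, BNAP/GRP1, GRP2/MP3 and NSC, and the step between PFMP and BNAP/GRP1 was the only one among all 20 neighbouring pairs of the 5 genes that exceeded the larger SD of its pair (3.86 against 3.06).

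Markers of OPCs moved with Pdgfra. The 10 OPC markers summed to 2948, 3469, 13.9 and 819 RPKM in GRP3 and to 2142, 2453, 15.1 and 461 in PFMP, against 1.85 to 248 in the other 12 libraries. The sums were higher in GRP3 and PFMP than in the other libraries of the same batch, batch 3 included. With the replicate block 8 of the 10 passed as higher in the CD140a gate, where 0.713% of all genes did, among them Olig2 at 3.87 ± 0.66 and Sox10 at 3.53 ± 0.64 on the log2 scale, both transcription factors of the oligodendrocyte lineage. Without a batch term 0 of 10 passed, and the median difference of the list was 2.91, where the median of all genes was -0.19. The list holds Lhfpl3 and Matn4, which the study named among the top upregulated genes of GRP3 in these same libraries. The count is therefore not independent of these data.

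Among the other receptors of the PDGF family and its relatives, 5 of 6 listed genes were tested. With the replicate block 0.999% of all genes were called lower in the matched CD140a comparison. Pdgfrb, the receptor of pericytes, was lower in the matched CD140a+ populations by 1.87 ± 0.57 without a batch term (adjusted p = 0.710, limma) and passed with the replicate block (adjusted p = 0.0453). It reached 16.1, 6.74, 0.104 and 30.8 RPKM in GRP2/MP3 and at most 1.03 in GRP3 and 0.532 in PFMP. Csf1r, the receptor that maintains microglia, likewise passed only with the block (-2.78 ± 0.59, adjusted p = 0.0377) and stood at 127, 55.3, 90.6 and 5.23 RPKM in BNAP/GRP1 and at 138, 93.8, 89.3 and 16.6 in GRP2/MP3. In GRP3 it was at 2.47, 2.17, 89.4 and 1.30 and in PFMP at 1.94, 4.21, 88.4 and 4.47, so that in batch 3 these 4 populations lay between 88.4 and 90.6. Kit, the stem cell factor receptor, did not pass (1.17 ± 0.59, adjusted p = 0.895, or 0.395 with the block).

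Of the 4 PDGF ligands, Pdgfa was the most abundant, and its product is the ligand that drives OPC proliferation through CD140a. It was higher in NSC than in the mean of the 4 progenitors by 1.96 ± 0.41 on the log2 scale (adjusted p = 0.0102, limma, where 1.96% of genes were called higher in NSC and 0.0217% lower). Pdgfa was at 128, 103, 33.5 and 78.5 RPKM in NSC and between 10.9 and 54.9 in the 16 progenitor libraries. NSC was above every progenitor of its batch in all 4 batches, as for 3.28% of all genes tested. The other 3 ligands, Pdgfb, Pdgfc and Pdgfd, did not pass in any contrast. Ligand and receptor transcripts were therefore highest in different populations, Pdgfa in NSC and Pdgfra in GRP3 and PFMP.

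Prom1 followed the CD133 gate in 3 of 4 batches. Its RPKM in NSC was 84.2, 46.1, 10.01 and 9.56 in batches 1 to 4. In the CD133- populations it was 6.13, 9.19, 0.662 and 35.5 in BNAP/GRP1, 5.75, 14.1, 1.36 and 11.2 in GRP2/MP3, 10.9, 8.92, 0.991 and 12.9 in GRP3, and 7.60, 5.12, 0.255 and 18.2 in PFMP. NSC was the highest library of batches 1, 2 and 3, by 7.74-fold, 3.26-fold and 7.37-fold over the next, and the lowest of batch 4. In all, 12 of 16 pairs within batches were in the order of the gate, a count that 15.95% of genes reached or exceeded and where the median gene had 7. Separation in at least 3 of 4 batches was seen in 9.43% of genes. All of the CD133- populations carried Prom1 transcripts, and in batch 4 each of them exceeded NSC.

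The difference of NSC from the mean of the 4 progenitors was 1.86 ± 0.79 (SE) on the log2 scale, with means of 4.71 and 2.85. Without a batch term the adjusted p was 0.532 by limma, and with the replicate block 0.0371, in a fit that called 4.14% of genes higher in NSC and 0.225% lower. With the block and without batch 3 the difference was 1.60 and the adjusted p 0.280 (3.19% of genes higher), so Prom1 did not pass there. The blocked fit was not rerun without any other batch, so whether the loss of the call was particular to batch 3 was not tested. Without batch 4 and without a batch term the difference was 2.75 (adjusted p = 0.182). Between populations of the CD133- gate the steps in mean level were at most 0.30 on the log2 scale, against SDs of 1.20 to 1.83.

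The markers of ependymal cells were high in the same libraries as the CD133 gate. The 10 markers summed to 3460.0, 17112, 1747 and 8795 RPKM in NSC and to medians of 7.85 to 24.2 in the progenitors, and all 10 passed as higher in the CD133 gate without a batch term, where 1.96% of all genes did. The list holds Foxj1, Fam183b and Tekt4, which the study named among the genes most reduced in the progenitors of these same libraries. This count, too, is therefore not independent of these data. In NSC 4, where Prom1 was lowest of its batch, the ependymal sum was 8795 and the next highest library of batch 4, GRP2/MP3 4, held 577. Foxj1, the transcription factor of motile cilia, was at 141, 352, 34.3 and 33.1 RPKM in NSC and at 0.00416 to 9.42 elsewhere. The 11 markers of NSCs and astroglia summed to 274 to 6128 RPKM in NSC and reached 14993 in GRP3, and 4 of 11 passed as higher in the CD133 gate with the replicate block, where 4.14% of all genes did, and 0 of 11 without a batch term. The part of these cells in the Prom1 values was not tested.

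Of the 7 genes listed as the prominin family and its partners, none passed in the CD133 gate without a batch term. With the block Prom1 and Ttyh1 passed, in a fit that called 4.14% of all genes higher in NSC. Ttyh1, which encodes a membrane protein of the tweety family, was higher in NSC by 1.61 ± 0.44 with the block (adjusted p = 0.0445). In batch 1, however, it was at 63.2 RPKM in GRP3 and 49.6 in NSC. Prom2, the paralog of Prom1, was at 0.447, 0.996, 0 and 4.68 RPKM in NSC and did not pass (0.24 ± 0.67 on the log2 scale, adjusted p = 1.00 by limma without a batch term). Among 15 other antigens used to sort neural precursors, Cd24a, a marker of ependymal cells and neuroblasts, was the one with the largest difference that passed in the CD133 gate with the block (1.89 ± 0.48, adjusted p = 0.0258), and St8sia2, an enzyme of polysialic acid synthesis, was the other (1.41 ± 0.37, adjusted p = 0.0332). None of the 15 passed in this gate without a batch term. In batch 4 St8sia2 was at 8.55 RPKM in PFMP and 8.30 in NSC.

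**Figure D2:**
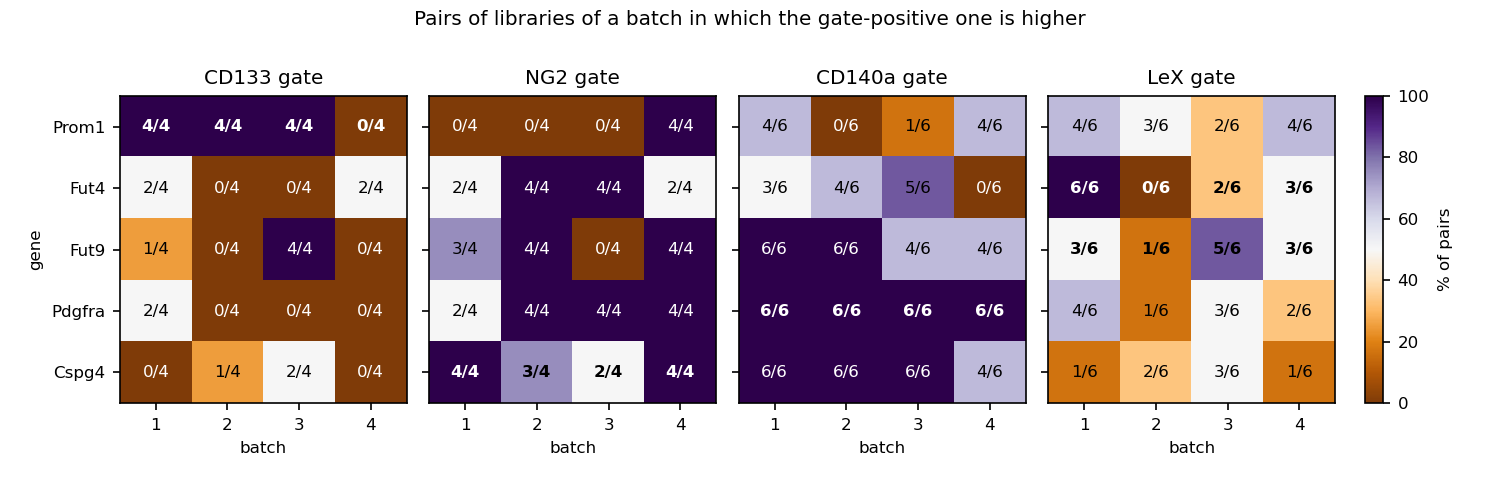
For each gene (rows) and batch (columns), the pairs of a gate-positive and a gate-negative library in which the positive one is higher, as count of all pairs and as colour (percent of pairs), for each of the 4 gates, with the own gate of a gene in bold. Pdgfra is at 6/6 in the CD140a gate in each batch, Prom1 at 4/4 in the CD133 gate in batches 1 to 3 and at 0/4 in batch 4, and Fut4 in the LeX gate runs from 6/6 in batch 1 to 0/6 in batch 2.

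Cspg4 had most pairs in order in the NG2 gate of its own protein, and likewise in the CD140a gate. Its RPKM in NSC, the NG2- population, was 0.405, 0.438, 0.197 and 1.12. In the NG2+ populations it was 0.844, 0.249, 0.0362 and 8.49 in BNAP/GRP1, 5.91, 9.64, 0.0431 and 7.89 in GRP2/MP3, 93.2, 80.9, 0.245 and 11.7 in GRP3, and 23.5, 146, 0.398 and 4.70 in PFMP. NSC was below all 4 progenitors in batches 1 and 4. In batches 2 and 3 BNAP/GRP1 was below NSC, and in batch 3 GRP2/MP3 was too, although both were sorted as NG2+. These orders rest on few reads, with Cspg4 at an estimated 1.31 to 5.93 reads in the BNAP/GRP1 and NSC libraries of batches 2 and 3 and in GRP2/MP3 3.

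In the NG2 gate 13 of 16 pairs within batches were in order, a count that 6.96% of genes reached or exceeded. In the CD140a gate, which was not the gate of its own antigen, 22 of 24 pairs were in order, which 0.894% of genes reached or exceeded. Without batch 3 the counts were 11 of 12 in the NG2 gate and 16 of 18 in the CD140a gate, a count added after seeing the data. GRP3 and PFMP were above the other 3 libraries of their batch in batches 1, 2 and 3, though in batch 3 all 5 libraries lay between 0.0362 and 0.398 RPKM. In batch 4 PFMP, at 4.70, was below BNAP/GRP1 and GRP2/MP3.

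The difference of the 4 progenitors from NSC was 2.26 ± 1.04 (SE) on the log2 scale, with an adjusted p of 0.672 by limma without a batch term and 0.140 with the replicate block. In this contrast 0.0217% of genes were called higher in the progenitors, and 0.225% with the block. Pdgfra passed there with the block, at 3.07 ± 0.84 (adjusted p = 0.0423), as did Prom1 as lower, since this is the CD133 contrast reversed. When only the CD140a- populations were set against NSC, the difference of Cspg4 was 1.15 ± 1.14, with a 95% interval from -1.23 to 3.53 (adjusted p = 0.999). In the CD140a gate the difference was 2.61 ± 0.85, with an adjusted p of 0.447 without a batch term and 0.0433 with the block. In the matched CD140a comparison it was 2.22 ± 0.93, with an adjusted p of 0.895 and, with the block, 0.132. The NG2 and CD140a differences themselves were not tested against each other.

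GRP2/MP3 had the highest mean level of Cspg4 among the CD140a- populations, and pericyte markers were highest there in batches 1, 2 and 4. The 10 pericyte markers summed to 533, 461, 125 and 7510.2 RPKM in GRP2/MP3, to 9.70 to 219.6 in BNAP/GRP1 and to 6.08 to 131 in the other 3 populations. Rgs5, a pericyte marker, was at 120.4, 155, 0.251 and 6493 RPKM in GRP2/MP3. The study named Higd1b, also on the list, among the top upregulated genes of GRP2/MP3 in these same libraries. It also named Rgs5 as a pericyte gene expressed there. The pericyte sums are therefore not independent of these data. The 11 markers of microglia summed to 9169, 2716, 2848 and 158 RPKM in BNAP/GRP1 and to 8638, 4975, 2776 and 836 in GRP2/MP3, against 18.0 to 147 in the other libraries outside batch 3. These markers include Cx3cr1, which the study named among the immune genes upregulated in both populations, so these sums are not independent either. In BNAP/GRP1 the library with the fewest microglial transcripts, that of batch 4, was the one with the most Cspg4, and it was also the shallowest. The 9 endothelial markers summed to 7.83 to 366 RPKM, the 5 smooth muscle markers to 0.784 to 42.4, the 9 neuroblast markers to 58.9 to 530.3 and the 7 choroid plexus markers to 0.164 to 206, with the highest sum of each of these lists in an NSC library. The part of these cells in the Cspg4 values was not tested.

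**Figure D3:**
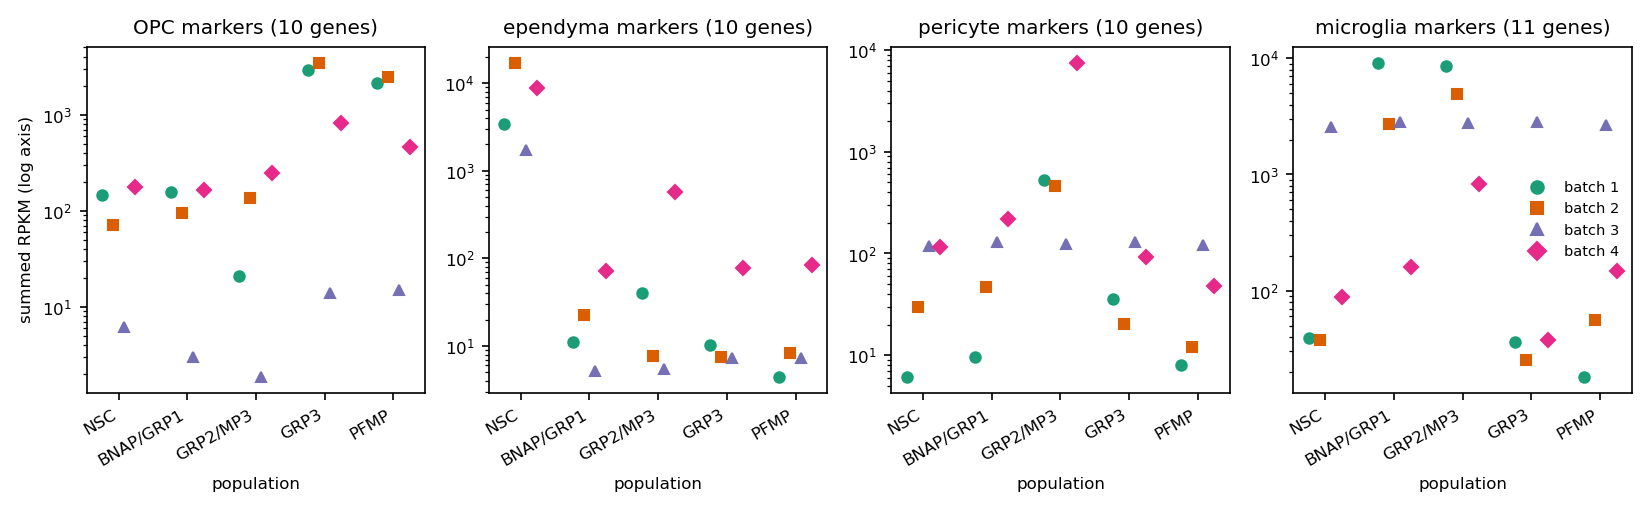
Summed RPKM (log axis) of the markers of OPCs, ependymal cells, pericytes and microglia in each library, by population, with the batch as colour and shape. OPC markers are highest in GRP3 and PFMP of each batch, ependymal markers in NSC, pericyte markers in GRP2/MP3 in batches 1, 2 and 4, and microglial markers in BNAP/GRP1 and GRP2/MP3, with all 5 libraries of batch 3 between 2539.8 and 2848.

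The chains of NG2 are built by a shared set of enzymes, of which 18 of 20 listed genes were tested. None passed in any contrast, with or without the replicate block. With the block 0.713% of all genes were called higher in the CD140a gate, and 0% without a batch term. In the CD140a gate 14 of 18 had a positive difference and the median was 0.38 on the log2 scale, where the median of all genes was -0.19. Chst11, a chondroitin 4-sulfotransferase picked after its values were seen, differed by 1.08 ± 0.45, and Xylt1, which starts the chains, by 1.51. For Chst11 both CD140a+ libraries exceeded the others of their batch in batches 1 and 2 only. In batch 3 GRP3 and PFMP, at 5.97 and 5.51 RPKM, were below GRP2/MP3 and NSC, at 6.11 and 6.75. Of the 7 tested partners and sheddases of NG2, Lgals3 passed as lower in the CD140a+ populations with the block (-2.72 ± 0.57, adjusted p = 0.0209). In that fit 1.14% of all genes were called lower. Lgals3 encodes galectin-3, which macrophages make in quantity, and it was at 2194 to 2452 RPKM in batch 3 and at 0.533 to 211 elsewhere. GRP3 and PFMP were the lowest libraries in batches 1, 2 and 4. In batch 3 GRP3, at 2452, was above NSC, at 2194, and BNAP/GRP1, at 2418.

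Neither fucosyltransferase followed the LeX gate. The RPKM of Fut4 in the LeX+ populations was 0.925, 0.00886, 0.502 and 2.11 in NSC, 1.78, 0.0143, 1.14 and 7.04 in BNAP/GRP1, and 1.70, 1.36, 1.03 and 0.0164 in PFMP. In the LeX- populations it was 0.370, 4.96, 0.674 and 2.32 in GRP2/MP3 and 0.669, 1.74, 1.18 and 1.59 in GRP3. The groups overlapped in batches 2, 3 and 4. In batch 1 all 3 LeX+ libraries lay above both LeX- libraries, as in 4.53% of genes, and in batch 2 all 3 lay below them.

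Fut4 was close to the limit of detection. From the steps between low values and the exon lengths of GENCODE, its values stood for an estimated 0.0409 to 22.6 reads a library, with a median of 4.24. A value such as the 7.04 RPKM of BNAP/GRP1 4 stood for an estimated 3.52 reads. At this depth the spread within a population, with SDs of 0.32 to 1.24 on the log2 scale, was as wide as the differences between populations, whose means ran from 0.80 to 1.40.

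The RPKM of Fut9 in the LeX+ populations was 1.28, 0.876, 0.137 and 2.30 in NSC, 2.33, 1.17, 0.0581 and 8.12 in BNAP/GRP1, and 11.8, 7.13, 0.112 and 7.72 in PFMP. In the LeX- populations it was 0.418, 1.76, 0.00361 and 4.22 in GRP2/MP3 and 13.2, 14.9, 0.0800 and 7.94 in GRP3. GRP3, sorted as LeX-, was the highest library of batches 1 and 2, and NSC, sorted as LeX+, was below GRP3 in batches 1, 2 and 4. All 5 libraries of batch 3 held 0.137 RPKM or less, an estimated 0.127 to 5.38 reads a library.

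Within batches 11 of 24 pairs of a LeX+ and a LeX- library were in order for Fut4 and 12 of 24 for Fut9, where the median of all genes was 11. The difference of the LeX+ from the LeX- populations was -0.23 ± 0.41 (SE) for Fut4, with a 95% interval from -1.09 to 0.63. For Fut9 it was -0.26 ± 0.59, with an interval from -1.49 to 0.98. Both had an adjusted p of 1.00 by limma, with and without the replicate block. No gene passed in the LeX gate without a batch term (0% in either direction, with 435 higher and 80 lower at an unadjusted p under 0.05), and 0.29% were called higher and 0.00362% lower with the block.

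The comparison of BNAP/GRP1 and PFMP with GRP2/MP3 and GRP3 removed NSC and left LeX as the only antigen on which the sides differed. Fut4 differed by -0.11 ± 0.45, with a 95% interval from -1.05 to 0.84, and Fut9 by 0.08 ± 0.65, with an interval from -1.27 to 1.43. No gene was called in this comparison by limma, with or without the block (0%), and 19 were higher and 63 lower at an unadjusted p under 0.05 without it.

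Fut9 was instead ordered by the CD140a gate, a pattern that was picked out after its values had been seen. In that gate 20 of 24 pairs within batches were in order, a count that 3.34% of genes reached or exceeded. Without batch 3 it was 16 of 18, a count added after seeing the data. The lower of GRP3 and PFMP exceeded the highest CD140a- library 5.08-fold in batch 1 and 4.04-fold in batch 2. In batch 4 it was at 0.951 times that library, which was BNAP/GRP1 4, and in batch 3 at 0.584 times. The batch 3 ratio rests on an estimated 3.14 reads in GRP3 3 and 4.32 in NSC 3. The difference was 1.43 ± 0.59 on the log2 scale, with an adjusted p of 0.708 by limma without a batch term and 0.0529 with the replicate block, so it did not pass in either fit. In the matched CD140a comparison the difference of Fut9 was 1.32 ± 0.65. It did not pass there either, with an adjusted p of 0.895 by limma without a batch term and 0.120 with the block.

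**Figure D4:**
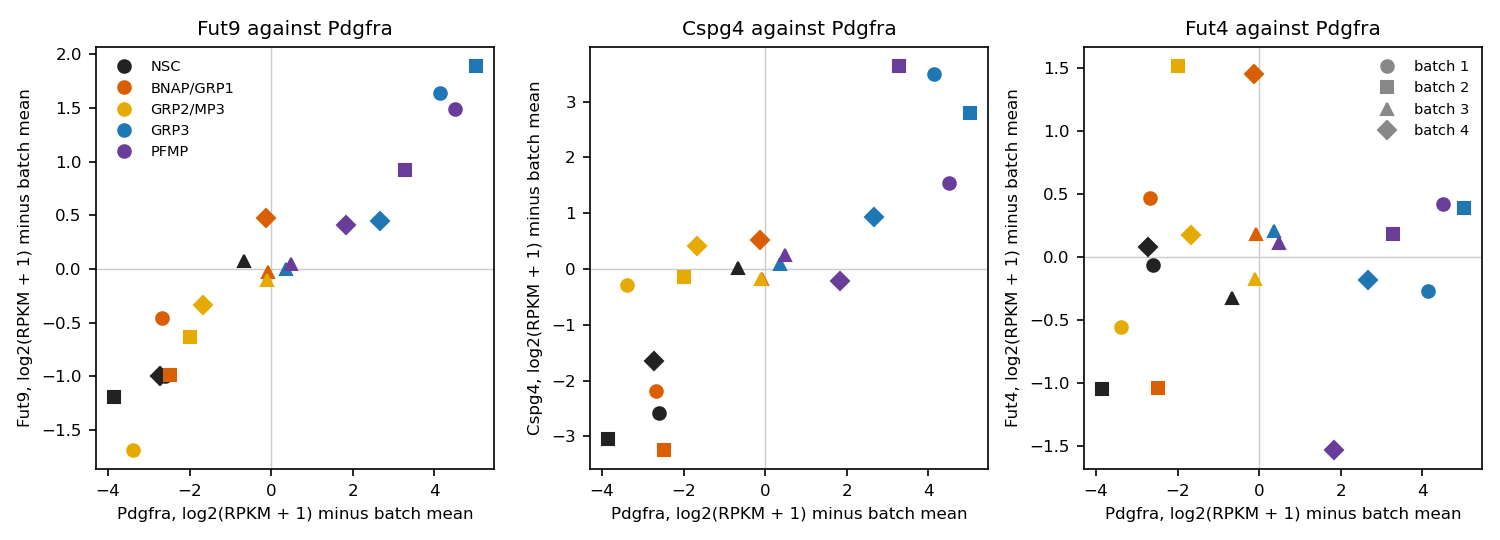
Fut9, Cspg4 and Fut4 against Pdgfra in the 20 libraries, each as log2(RPKM + 1) minus the mean of its batch, with the population as colour and the batch as shape. Fut9 (r = 0.961) and Cspg4 (r = 0.855) are higher where Pdgfra is, with GRP3 and PFMP of batches 1 and 2 at the upper right and batch 3 near the origin, though PFMP 4 lies below BNAP/GRP1 4 and GRP2/MP3 4 for Cspg4, and Fut4 (r = 0.106) shows no such order.

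With the mean of each batch taken out of log2(RPKM + 1), the levels of Fut9 and Pdgfra over the 20 libraries had a Pearson r of 0.961 (Spearman's rho 0.932). Pdgfra and Cspg4 had an r of 0.855, and Fut9 and Cspg4 one of 0.834. Of 12228 genes with a mean RPKM of at least 5, 0.123% had an r with Fut9 of at least 0.961. An r with Pdgfra of at least 0.855 was reached by 2.09% of them, and one with Fut9 of at least 0.834 by 3.28%. Fut4 was at 0.225 with Fut9, 0.106 with Pdgfra and 0.297 with Cspg4, and Prom1 had an r of -0.369 to -0.106 with the other 4. These are descriptions of 20 libraries that share 4 batches and 5 populations. GRP3 and PFMP of batches 1 and 2 form the upper end of the relations among Pdgfra, Fut9 and Cspg4, while in batch 4 PFMP was below BNAP/GRP1 and GRP2/MP3 for Cspg4.

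The genes whose levels were most like each member over the 20 libraries were found in the same way among those with a mean RPKM of at least 5. For Pdgfra they were Lhfpl3, Nxph1, Pcdh11x, Lppr5 and Scn3a (r from 0.982 to 0.986), and for Fut9 Sapcd2, Abtb2, Neto1, Pcdh11x and Lppr5 (r from 0.972 to 0.982). Pcdh11x and Lppr5 were thus on both lists, and Lhfpl3 is one of the OPC markers. For Cspg4 they were G0s2, Gsx1, Sdc3, Galnt10 and Fam222b (r from 0.933 to 0.958). Prom1 was most like Nxpe4, Yap1, Ankrd45, Efcab11 and 9230110C19Rik (r from 0.891 to 0.907, with rho from 0.542 to 0.645), and Fut4 most like Samhd1, Slk, Slc39a2, Nfxl1 and Ep300 (r from 0.865 to 0.917).

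The upstream sequences of Pdgfra and Cspg4 are shown because these were the members with the most pairs in the order of the CD140a gate. They are RefSeq windows on GRCm38.p6, plus strand, read 5' to 3' and ended before the first annotated transcript: chr5:75152001-75152250 for Pdgfra and chr9:56864854-56865032 for Cspg4. Capitals mark GC boxes, that is GGGCGG on either strand.
Pdgfra: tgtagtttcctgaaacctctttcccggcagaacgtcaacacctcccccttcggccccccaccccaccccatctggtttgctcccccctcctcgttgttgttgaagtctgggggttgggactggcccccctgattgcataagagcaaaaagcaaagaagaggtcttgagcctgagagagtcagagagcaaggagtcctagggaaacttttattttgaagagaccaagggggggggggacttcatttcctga
Cspg4: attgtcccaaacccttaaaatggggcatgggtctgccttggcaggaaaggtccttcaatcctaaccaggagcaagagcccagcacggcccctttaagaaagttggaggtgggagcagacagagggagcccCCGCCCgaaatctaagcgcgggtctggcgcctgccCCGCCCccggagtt
The Cspg4 sequence held 2 GC boxes and that of Pdgfra 0. Over all 32851 promoter windows of 300 bases, 35.7% held a GC box on either strand. Of the other letters searched on both strands, CAGCTG was in 16.3% of all windows, CATATG in 3.91%, AACAAT in 10.7%, ACAAAG in 18.7% and TATAAA in 13.6%, and none had a match in the 300-base windows of Pdgfra and Cspg4. Promoter windows were at hand for 4 of the 5 genes, all but Fut9. No match says only that these letters are not in these windows.

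The rest of the LeX pathway was followed by lists of its steps. The third alpha-1,3-fucosyltransferase, Fut7, which acts on sialylated chains in leukocytes, was at 0 to 2.03 RPKM in all libraries but BNAP/GRP1 4, where it was at 16.4, and it did not pass in the LeX gate (0.15 ± 0.44). Of the 7 genes of GDP-fucose supply, the 13 of N-acetyllactosamine chains, the 6 alpha-2,3-sialyltransferases and the 5 tested of 7 other fucosyltransferases, none passed in the LeX gate or in the matched LeX comparison, with or without the block. Of all genes tested, 0% passed in the LeX gate or in the matched comparison without a batch term. With the block 0.29% passed as higher and 0.00362% as lower in the LeX gate, and 0% in the matched comparison. The absence of calls was thus not particular to these lists. The medians of these lists in the LeX gate were -0.07, 0.08, 0.21 and -0.04 on the log2 scale, where the median of all genes was 0.07.

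Of these lists, 2 genes passed without a batch term, both in the contrast of NSC with the progenitors, where 1.96% of all genes passed as higher in NSC. B3gnt4, an enzyme that extends N-acetyllactosamine chains, was at 29.9, 56.7, 4.55 and 5.70 RPKM in NSC and at 0 to 4.03 in the progenitors, and was higher in NSC by 3.63 ± 0.55 (adjusted p = 0.000367, limma). St3gal6, a sialyltransferase of the same chains, was at 96.9, 118, 22.0 and 209 RPKM in NSC and at 7.19 to 38.3 in the progenitors (2.58 ± 0.50, adjusted p = 0.00409). NSC was above each progenitor of its batch for both genes in all 4 batches, as for 3.28% of all genes tested. With the block Gcnt2, which branches the chains, also passed (1.75 ± 0.48, adjusted p = 0.0437), as did Fuom, the fucose mutarotase (1.97 ± 0.53, adjusted p = 0.0359). That fit called 4.14% of all genes higher in NSC. For neither was NSC highest in every batch. Gcnt2 was at 9.13 RPKM in BNAP/GRP1 4 and 7.21 in NSC 4, and Fuom at 47.2 in GRP2/MP3 1 and 45.1 in NSC 1. None of these 4 genes passed in the comparison of LeX+ with LeX- progenitors, where no gene tested did (0%).

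B4galt1, the galactosyltransferase that completes the N-acetyllactosamine unit, passed as lower in the CD140a+ populations with the block (-2.07 ± 0.51, adjusted p = 0.0466) and not without a batch term (adjusted p = 0.457). With the block 1.14% of all genes were called lower in the CD140a gate. B4galt1 was at 1.05, 0.492, 27.0 and 14.3 RPKM in GRP3 and at 0.580, 0.0864, 24.3 and 8.25 in PFMP, against 5.48 to 75.6 in the CD140a- libraries. In batch 3 both CD140a+ libraries were above NSC, BNAP/GRP1 and GRP2/MP3, which held 23.4, 23.6 and 24.2. In batch 4 GRP3 was above BNAP/GRP1, which held 9.17. Fut8, the core fucosyltransferase, was at 46.8, 80.8, 5.88 and 15.6 RPKM in GRP3, the highest library of each batch, and at 45.5, 21.3, 5.40 and 10.4 in PFMP, which in batches 2, 3 and 4 was below at least 1 CD140a- library, and it did not pass (1.30 ± 0.52, adjusted p = 0.677, or 0.141 with the block).

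**Figure D5:**
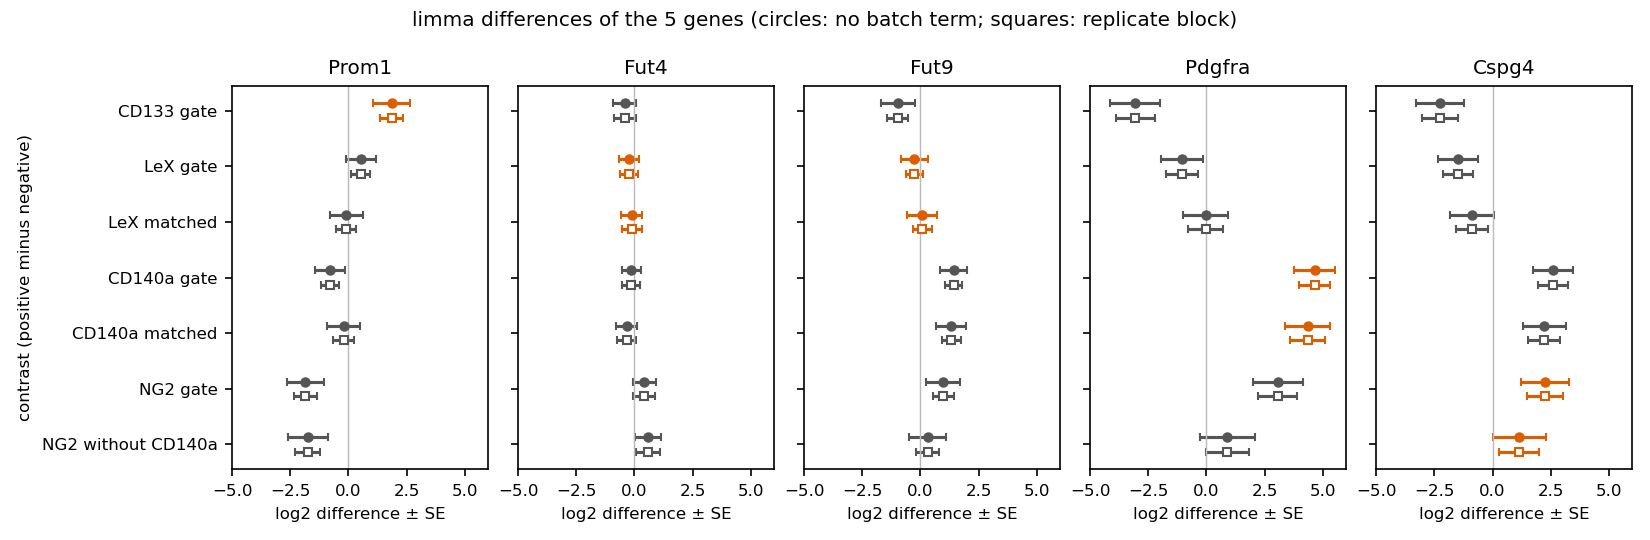
Differences of the 5 genes on the scale of log2(RPKM + 1), as mean of the gate-positive minus mean of the gate-negative populations ± SE, in 7 contrasts, without a batch term (circles) and with the replicate block (squares), with contrasts of the own antigen in orange. Pdgfra is at 4.65 in the CD140a gate and at 4.35 in the matched comparison, Cspg4 is at 2.61 in the CD140a gate and 2.26 in its own, and Fut4 and Fut9 lie at -0.23 and -0.26 in the LeX gate.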

How the data were processed

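RNA of 20 sorted populations, 5 in each of 4 batches, was sequenced after amplification from polyA tails. Per the labels and the study's methods, the authors trimmed reads with cutadapt 3.4, checked them with FastQC 0.11.9, aligned them with STAR 2.6.1 to GRCm38 and quantified them with Salmon 1.9.0 in the nf-core/rnaseq pipeline. The authors deposited these values as RPKM, and the gene lengths and read totals behind the RPKM values are not given in the sources used here, so that depth is known only relative to 1 library. The authors tested with DESeq2 1.26.0, and whether a batch term was used is not given in the sources used here.

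The RPKM values were taken as log2(RPKM + 1), and genes that reached an RPKM of 1 in 4 libraries or more were kept. Contrasts of population means were fitted over all libraries with limma 3.58.1 (R 4.3.3, trended prior), two-sided, with Benjamini-Hochberg adjustment over 27614 genes and a threshold of 0.05. A fold change on this scale understates that of low genes. The labels give the batch of each library, so the batch numbers pair the libraries, and a second fit had the batch as a replicate block. Residuals of libraries of the same batch had a median r of 0.337, 0.262, 0.769 and 0.581 in batches 1 to 4, against -0.254 between batches. Residuals were taken from the mean of each population, which in part pushes values between batches below 0 by construction. Populations of pooled litters were treated as replicates. Named genes were the 5 genes, the 5 most like each by Pearson r, and from each list up to 4 genes past the threshold by smallest p, with or without the block, or otherwise of highest mean RPKM. Prom2, Chst11, Foxj1 and the comparison of Fut9 with the CD140a gate were picked after their values were seen. The genes and the 22 lists were chosen with earlier results of these data known. The fit was tested on simulated data.

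Alternatives were the replicate block, a pseudocount of 0.1, no filter, a filter at a mean RPKM of 5, median-of-ratios and quantile scaling, a prior without a trend, library weights, and leaving out each library or batch. Motifs were counted in RefSeq promoter windows of GRCm38.p6. A further 26 unnamed columns of the table held no values.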

Additional observations from a re-analysis of the deposited data

Results flagged for a closer look

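Pdgfra in BNAP/GRP1 4 was at 24.1 RPKM, far from the other 3 BNAP/GRP1 libraries at 2.26 to 3.59. On the scale of log2(RPKM + 1) the gap to the nearest of them was 0.833 of the range of the 4, above the 95% critical value of Dixon's test for 4 samples. Such a gap was looked for in 25 groups, each of the 5 genes in each population, and this was the only one past the limit, where chance gives about 1 in 20. BNAP/GRP1 4 had the lowest depth of the 20 libraries, and it was also the highest of its population for Prom1, Fut4, Fut9 and Cspg4. The part of depth in this value was not tested.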

How the results depend on the processing

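With the batch as a replicate block, Prom1 in the CD133 gate (1.86) and Pdgfra in the CD140a gate (4.65) and in the matched comparison (4.35) passed the threshold, and the block changed no other call on an antigen's own gate or in the matched contrasts. With the block and without batch 3, chosen after seeing the data, Pdgfra was at 5.96 and 5.63 and passed, and Prom1 did not. Quantile scaling brought Pdgfra in its gate (4.69) past the threshold and turned Fut9 in the matched LeX comparison to -0.20. Library weights brought Prom1 (2.64), Pdgfra (6.02, matched 5.80), Cspg4 in the NG2 gate (2.88) and matched with CD140a (3.58), and Fut9 matched with CD140a (2.01, adjusted p = 0.00758) past it, and gave Fut9 -0.28 matched with LeX. A mean RPKM of at least 5 left out Fut4 and Fut9, so gave no value there.

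Leaving out a library or a batch gave ranges of 1.29 to 2.75 for Prom1, 3.80 to 5.96 for Pdgfra, 1.75 to 3.03 for Cspg4, -0.54 to 0.22 for Fut4 and -0.70 to 0.01 for Fut9 in their own gates. In the matched contrasts they were 3.35 to 5.63 for Pdgfra, 1.33 to 3.00 for Cspg4, 0.89 to 1.77 for Fut9 with CD140a, -0.43 to 0.32 for Fut4 and -0.36 to 0.47 for Fut9 with LeX. Fut4 changed sign without batch 2 in both (0.22 and 0.32), and matched also without BNAP/GRP1 2, GRP2/MP3 2 or PFMP 4 (0.12, 0.09 and 0.04), and Fut9 in the LeX gate without PFMP 3 (0.0039) or batch 2 (0.0072). Fut9 matched with LeX changed sign under 11 of 32 alternatives. No sign changed for Prom1, Pdgfra or Cspg4 under any alternative. The cause was not tested. Fut4 stood at a median of 4.24 estimated reads a library, and the part of depth was not tested.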
